A study of Mus musculus with 18 samples.

Results

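Livers of Atf4-/- mice were compared with livers of Gcn2-/- mice that had received PBS only, to find which hepatic functions separated the deletions at rest. Members of the comparison were the genes whose Cuffdiff status was OK in both groups and whose expression was over 3 FPKM (a read level scaled to transcript length and to library size) in at least 1 of them. By this rule 9116 of the 37303 genes in the table were members. Of these, 9015 had a value above 0 in both groups and could be compared, and 101 were listed at 0 in 1 group. Those 101 comprised 51 snoRNAs, 24 snRNAs, 14 miRNAs, 5 rRNAs, 2 scaRNAs, 2 processed pseudogenes and 3 genes not in the annotation used here. A further 38 genes of the whole table were left out because of their status.

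The mice were on a C57BL/6J background, and the whole-body homozygous deletion of Gcn2 or Atf4 was present in every tissue. The series had 18 livers, with 3 mice in each of 6 groups (PBS or asparaginase, ASNase, in each of WT, Gcn2-/- and Atf4-/-). PBS or ASNase at 3 IU per gram body weight was injected on 8 consecutive days, and livers were collected 7.5 h after the last injection by the labels. Age was 8 to 16 weeks in one label and 8 to 12 weeks in another. The sexes were unequal: the Gcn2-/- PBS group had 1 male and 2 females, as had the WT PBS group, whereas the Atf4-/- PBS group had 2 males and 1 female. ASNase groups had 1 male and 2 females for Gcn2-/-, and 2 males and 1 female for Atf4-/- and for WT.

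GCN2 is a protein kinase that senses uncharged tRNA when amino acids are scarce and phosphorylates the translation initiation factor eIF2. This lowers general protein synthesis while translation of the mRNA for ATF4, a basic leucine zipper transcription factor, increases. ATF4 in turn activates genes for amino acid synthesis and transport, aminoacyl-tRNA synthetases and stress hormones such as FGF21. Other kinases also phosphorylate eIF2, and ATF4 is made at a low level in unstressed cells, so that loss of the kinase and loss of the factor need not give the same liver.

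ATF4 binds composite elements (C/EBP-ATF response elements, CARE), of which the letters TGATGNAA were searched on both strands in the RefSeq promoter windows of mouse genes (build GRCm38.p6, 250 bases before to 50 after each start). These letters also lie within longer elements that other ATF and C/EBP factors bind. They occurred in 1304 of 32851 windows, or 3.97%. In the list of 30 known targets of the integrated stress response and amino acid response used here, 9 of the 25 genes with a window held them. Fgf21, which encodes a stress hormone, and Asns, which encodes asparagine synthetase, are shown because they were the members of that list with the largest difference between the deletions. The stretches are the 150 bases before each start on the minus strand, at chr7:45615491-45615640 for Fgf21 and chr6:7693210-7693359 for Asns, and capitals mark the CARE letters.
Fgf21: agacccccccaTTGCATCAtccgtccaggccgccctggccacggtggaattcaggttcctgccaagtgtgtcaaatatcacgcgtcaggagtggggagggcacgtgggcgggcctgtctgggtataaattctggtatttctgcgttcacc
Asns: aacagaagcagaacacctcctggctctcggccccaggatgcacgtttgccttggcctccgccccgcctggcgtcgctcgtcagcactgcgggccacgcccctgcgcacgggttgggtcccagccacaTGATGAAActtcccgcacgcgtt
In Fgf21 the match began 139 bases before the start and was on the opposite strand, and in Asns it began 23 bases before the start. Such a match is a description of the letters and was not tested as a site.

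A second set of sequences is shown because Cyp3a16 gave the largest difference among protein-coding genes and the others are called genes that resemble it. Cyp3a16, Cyp3a41a and Cyp3a44 encode steroid- and drug-oxidising P450 enzymes of the Cyp3a cluster on chromosome 5. The 150 bases before their starts, all on the minus strand, lie at chr5:145469724-145469873, chr5:145720137-145720286 and chr5:145805875-145806024. Capitals mark the longest run of bases that the 3 stretches share, which was 40 bases long.
Cyp3a16: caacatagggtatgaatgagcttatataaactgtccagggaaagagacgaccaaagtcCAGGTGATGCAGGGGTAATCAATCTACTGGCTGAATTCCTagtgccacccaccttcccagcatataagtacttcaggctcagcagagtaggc
Cyp3a41a: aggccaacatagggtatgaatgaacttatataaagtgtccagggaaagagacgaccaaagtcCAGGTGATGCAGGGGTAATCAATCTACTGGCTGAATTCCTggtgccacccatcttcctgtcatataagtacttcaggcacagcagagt
Cyp3a44: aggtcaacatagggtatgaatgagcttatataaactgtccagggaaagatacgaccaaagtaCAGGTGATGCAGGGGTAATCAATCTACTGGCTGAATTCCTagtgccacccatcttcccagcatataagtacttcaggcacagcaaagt
In global alignments Cyp3a16 was identical to Cyp3a41a over 138 of 154 columns (89.6%) and to Cyp3a44 over 141 of 154 columns (91.6%), and Cyp3a41a was identical to Cyp3a44 over 140 of 150 columns (93.3%). None of the 3 windows held the CARE letters. Of the 65 protein-coding genes called below, 46 had a promoter window, and only Fgf21 and Gadd45g among them held the letters.

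Each group had a single FPKM value per gene, which Cuffdiff estimated from its 3 libraries together, with the lower and upper bound of an interval. Differences are given as log2(FPKM + 0.1) in Atf4-/- minus log2(FPKM + 0.1) in Gcn2-/-, so that folds of genes near the pseudocount come out too small. A gene was called when this difference was over 1.5 in either direction and the intervals of the groups did not overlap. No values of single mice entered the table used here, so differences could not be set against the spread between mice, and p-values are not given. The interval reached a median of 51.3% of the value to either side in Gcn2-/- and 52.3% in Atf4-/- PBS livers, and the number of reads behind a value was not in the table.

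The groups were close over most of the transcriptome. The median difference over the 9015 genes was -0.05, and the 5th and 95th percentiles were -0.64 and 0.65. The call was made for 88 genes, or 0.976% of those compared. Of these, 49 were higher in Atf4-/- (0.544%) and 39 were lower (0.433%). Intervals were separate for 113 genes at any fold (1.25%), and 170 genes passed the fold when intervals were not used (1.89%). Protein-coding genes made up 65 of the 88, with 41 higher and 24 lower in Atf4-/-, which is 0.759% of the protein-coding genes compared. The other 23 included 6 snoRNAs, all lower in Atf4-/-, 5 snRNAs, of which 4 were lower, and 5 pseudogenes, all higher. Libraries were made from poly-A RNA, in which short RNAs without a poly-A tail are poorly captured.

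**Figure D1:**
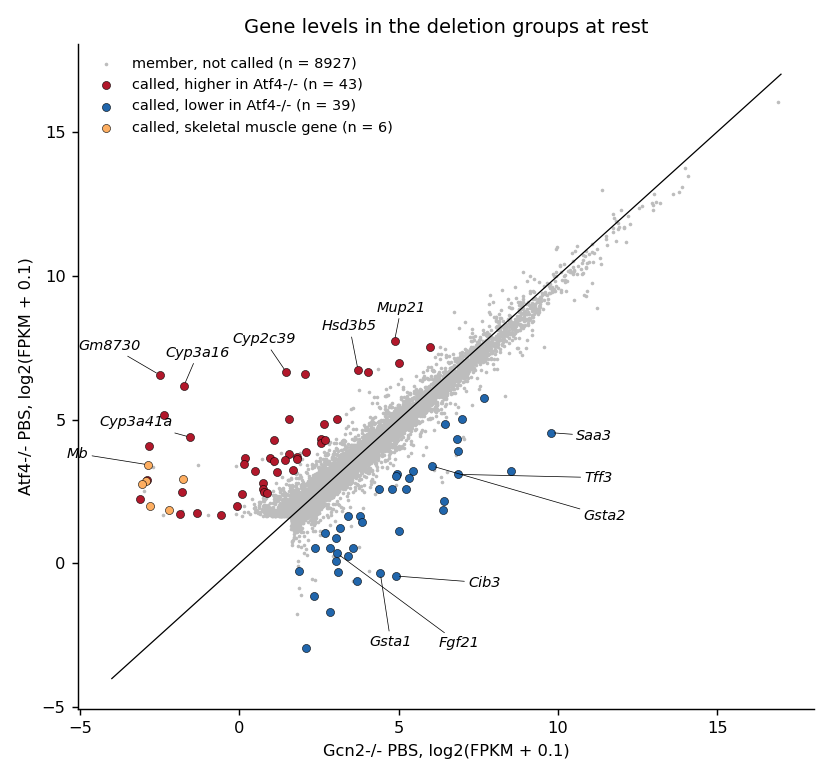
Level of each compared gene in Gcn2-/- PBS livers (x axis) and Atf4-/- PBS livers (y axis), both as log2(FPKM + 0.1), with 1 point per gene and the line of equal levels. Called genes lie well off the line on either side (43 higher and 39 lower in Atf4-/-, and 6 skeletal muscle genes drawn apart), while most genes not called lie around it. Some genes not called lie as far off the line, with overlapping intervals.

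The targeted genes were examined first. Atf4 (chr15:80255184-80257540, mm10) had 60.0 FPKM (interval 35.1 to 85.0) in Gcn2-/-, 32.3 (19.1 to 45.5) in Atf4-/- and 50.4 (29.7 to 71.1) in WT PBS livers. Its difference was -0.89 and the intervals overlapped. Reads were assigned to the locus in the Atf4-/- livers, and whether they came from the deleted part of the gene was not tested. The study reports, from read density along the genes, that a Gcn2 exon was absent in Gcn2-/- and Atf4 in Atf4-/- mice. It also measured Atf4 by RT-qPCR, and neither check was repeated here. Eif2ak4, which encodes GCN2 (chr2:118388618-118475234), was under 3 FPKM in both deletion groups, with 2.31 (1.05 to 3.57) in Gcn2-/- and 2.19 (0.925 to 3.45) in Atf4-/-, and 3.04 (0.268 to 5.82) in WT. A value over the whole gene covers all exons, and neither gene told the deletion groups apart by the calling rule.

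Cytochrome P450 genes were called in both directions and included the largest protein-coding difference. Cyp3a16 had 0.200 FPKM (0 to 0.425) in Gcn2-/-, 0.322 (0.0101 to 0.633) in WT and 72.2 (37.8 to 107) in Atf4-/- livers, a difference of 7.91. Cyp3a41a had 0.243 (0 to 0.495) in Gcn2-/-, 1.09 in WT and 20.8 (7.62 to 34.0) in Atf4-/-, a difference of 5.93. Cyp3a44 had 2.03 (0.718 to 3.35), 2.96 and 19.3 (5.93 to 32.7) in the same order, a difference of 3.19. In all 3 genes the Gcn2-/- and WT intervals overlapped and the Atf4-/- interval stood above both. Transcripts of these genes resemble each other: that of Cyp3a16 was 92.2% identical to Cyp3a41a and 91.7% to Cyp3a44, and Cyp3a41a was 99.7% identical to Cyp3a41b, so that reads of this pair could not be told apart.

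The Cyp3a cluster was not higher as a whole. Cyp3a59 was lower in Atf4-/-, with 7.71 FPKM (3.61 to 11.8) against 39.7 (19.9 to 59.5) in Gcn2-/- and 38.6 in WT, a difference of -2.35. Its transcript was 97.0% identical to Cyp3a25, which had 378 FPKM in Gcn2-/- and 471 in Atf4-/- and whose intervals overlapped. Cyp3a11, the main Cyp3a enzyme of mouse liver, had 1758 (0 to 4128) in Gcn2-/- and 1497 (325 to 2669) in Atf4-/-. Of the 7 Cyp3a genes compared, 3 were called higher and 1 lower, and the median difference was 0.32. Over all genes 0.544% were called higher and 0.433% lower, and the counts of the next lists are to be read beside these shares.

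Among the 30 Cyp2 genes compared, 1 was called higher and 2 lower, and the median difference was -0.02. Cyp2c39 (chr19:39510862-39568529), which oxidises retinoic acid, had 2.68 FPKM (1.09 to 4.27) in Gcn2-/-, 2.68 in WT and 100.2 (33.7 to 167) in Atf4-/-, a 37.4-fold ratio. Cyp2a22 had 12.9 (6.93 to 19.0) in Gcn2-/-, 17.7 in WT and 0.550 (0.139 to 0.961) in Atf4-/-, a difference of -4.33. Its transcript was 95.4% identical to that of Cyp2a12, which had 352 FPKM in Gcn2-/- and 400.1 in Atf4-/-, so that the split of reads between the pair is uncertain. For Cyp2b10, the classical target of the xenobiotic receptor CAR, the values were 14.4 (5.69 to 23.1), 15.3 and 2.63 (0.867 to 4.39), a difference of -2.41. All 3 stood apart in Atf4-/- livers while WT and Gcn2-/- overlapped. The abundant Cyp2e1, which oxidises ethanol, gave 0.42, Cyp2a5, which oxidises coumarin, gave -0.28 and Cyp2a4, a steroid hydroxylase, gave -2.04 with 756 FPKM in Gcn2-/- and 184 in Atf4-/-, all with overlapping intervals. After median-ratio scaling of the groups, which brought the median of all genes to 0.0056, the median of the Cyp2 list was 0.03.

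Other enzymes of drug, retinoid and sterol metabolism were called as well. Cyp26a1, which degrades retinoic acid, was called higher in Atf4-/-, with 9.18 FPKM (5.005 to 13.3) against 1.30 (0.412 to 2.18) in Gcn2-/-; here WT, at 15.7 (8.45 to 23.04), was apart from Gcn2-/- only. It was the only called gene among 33 genes of other xenobiotic and retinoid metabolism, whose median was 0.26. Sult2a6, a sulfotransferase of steroids and bile acids, had 0.0163 (0 to 0.0958) in Gcn2-/- and 4.67 (1.46 to 7.88) in Atf4-/- and was listed at 0 in WT. Of 21 genes of bile acid synthesis and transport, Cyp7b1 and Slco1a1 were called higher in Atf4-/- and none lower, and the median was -0.05 (0.0053 after scaling). Cyp7b1, the oxysterol hydroxylase of the alternative pathway, had 16.2 (8.32 to 24.1) in Gcn2-/-, 43.7 (16.5 to 70.9) in WT and 101 (41.0 to 160.0) in Atf4-/-. Slco1a1, an uptake transporter of organic anions, had 32.1 (15.7 to 48.6), 103 and 124 (53.8 to 195), with a WT interval that overlapped both.

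Gsta1 and Gsta2, which encode glutathione transferases of the alpha class, were called lower in Atf4-/- livers. Gsta1 (chr9:78230656-78242684) had 21.4 FPKM (10.6 to 32.2) in Gcn2-/-, 13.7 (6.19 to 21.2) in WT and 0.687 (0 to 1.44) in Atf4-/-, a 31.2-fold ratio of Gcn2-/- to Atf4-/-. Gsta2 had 65.9 (36.4 to 95.3), 46.8 (25.9 to 67.7) and 10.4 (4.74 to 16.0), a 6.35-fold ratio. Both were apart from WT in Atf4-/- only. They are near copies of each other and of predicted genes (Gsta1 was 97.2% identical to Gsta2 and 99.5% to Gm3776), so the share of reads each received is uncertain. Of the 28 genes in the list of NRF2 targets and glutathione enzymes, these 2 were called, 22 had a difference below 0, and the median was -0.34, beside 0.976% called and 56.2% below 0 over all genes. Nqo1, a quinone reductase and common marker of NRF2 activity, had 6.78 (3.54 to 10.03) and 2.94 (1.22 to 4.67), with overlapping intervals, and the abundant Mgst1, Gpx1, Gsta3 and Gstm1 gave differences between -0.34 and -0.17.

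**Figure D2:**
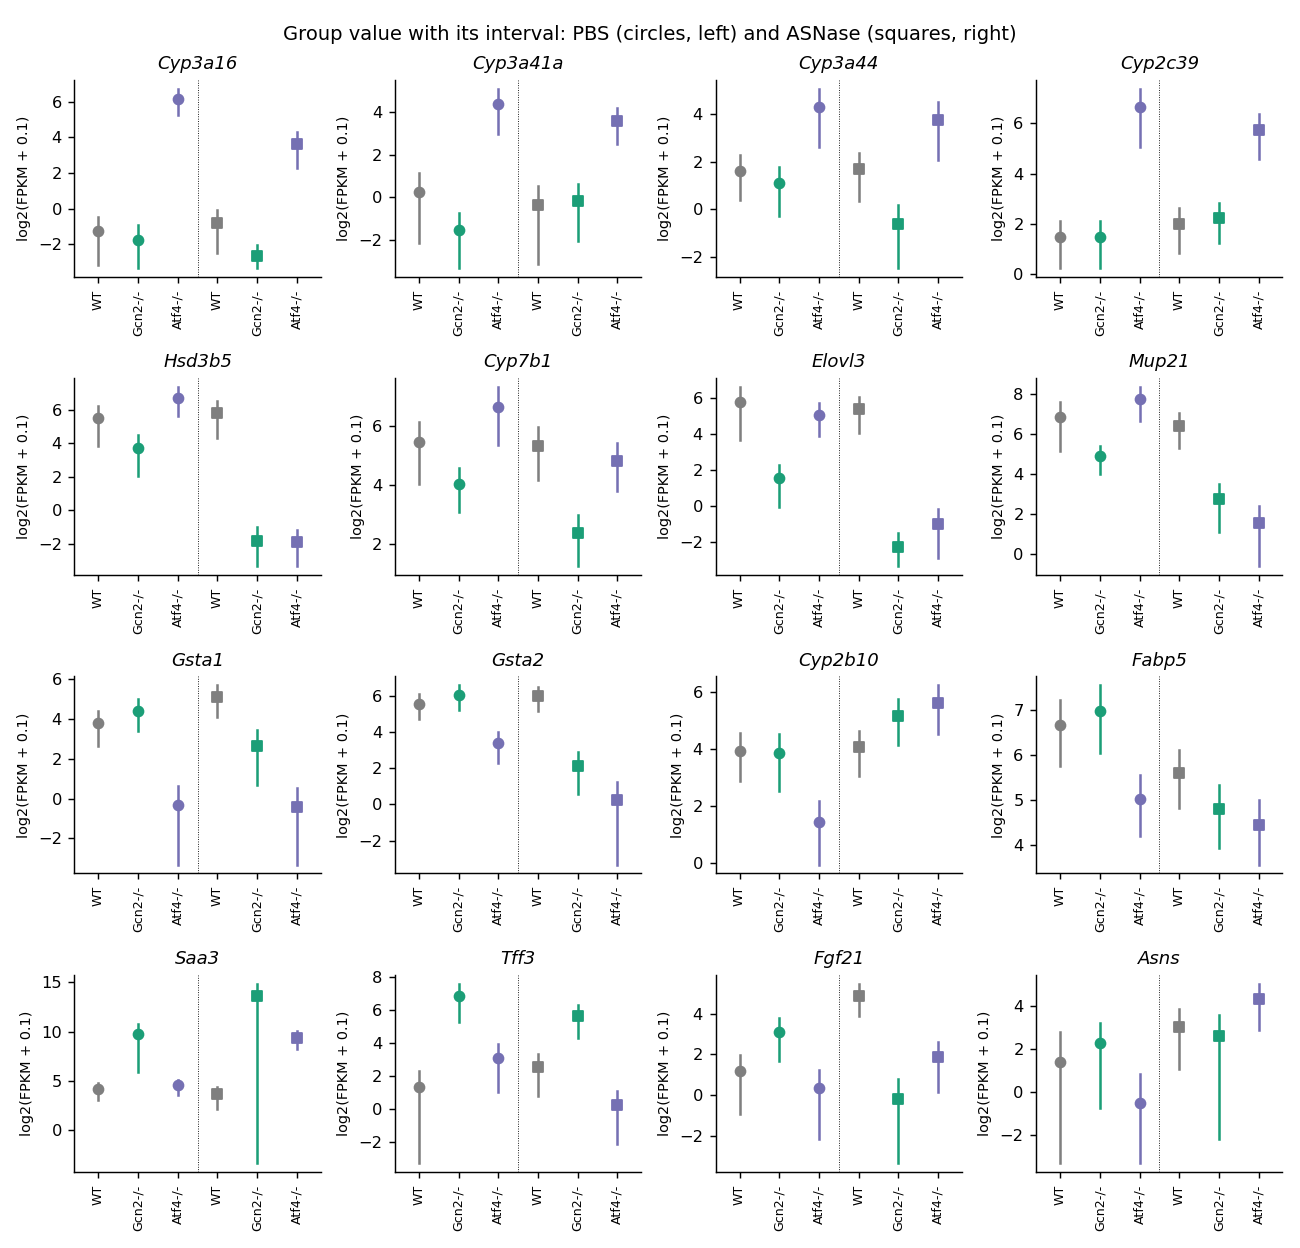
Level as log2(FPKM + 0.1) of 16 named genes in the 6 groups, PBS as circles and ASNase as squares, each a group value of 3 mice with its Cuffdiff interval as a line. In PBS livers Cyp3a16, Cyp3a41a, Cyp3a44 and Cyp2c39 stand above the other genotypes in Atf4-/- and Gsta1, Gsta2, Cyp2b10 and Fabp5 stand below them, while Saa3 and Tff3 stand above the other genotypes in Gcn2-/-.

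Genes with sex-biased expression in mouse liver separated the groups, and the groups differed in sex. Of 28 genes with known male bias 21 could be compared. Among these, 19 were higher in Atf4-/- and the median difference was 1.23. Calls were made for 6, all higher, where 0.544% of all genes were called higher. The 6 were Elovl3, Hsd3b5, Mup21, Cyp7b1, Susd4 and Slco1a1. Hsd3b5, a steroid dehydrogenase of male liver, had 13.1 FPKM (4.01 to 22.3) in Gcn2-/-, 44.3 (13.9 to 74.7) in WT and 105 (48.2 to 162) in Atf4-/-. Mup21, a major urinary protein, had 29.2 (15.7 to 42.6), 113 (35.7 to 190.4) and 213 (101 to 325). Its transcript was 95.2% identical to Mup3, which had 2697, 6776 and 8121 in the same order, so the split of reads is uncertain. Of 21 Mup genes, 3 were listed at 0 in Gcn2-/-, 16 in WT and 16 in Atf4-/-. Elovl3, a fatty acid elongase, had 2.84 (0.878 to 4.81), 54.0 (12.6 to 95.5) and 32.7 (14.5 to 50.9), and the complement control protein gene Susd4 had 2.87 (1.11 to 4.62), 8.71 and 14.03 (7.16 to 20.9). WT lay above Gcn2-/- at each of the 6 genes by its value, and its interval was apart from Gcn2-/- only at Elovl3.

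The 25 female-biased genes compared did not move one way. Cyp3a16, Cyp3a44 and Cyp3a41a were called higher in Atf4-/-, whereas Hao2, Cyp2b10 and Abcd2 were called lower, and 16 of the 25 had a difference below 0, with a median of -0.28. Hao2, a peroxisomal hydroxyacid oxidase, had 10.6 FPKM (5.12 to 16.2) in Gcn2-/-, 7.83 in WT and 1.11 (0.117 to 2.099) in Atf4-/-. Abcd2, a peroxisomal fatty acid transporter, had 27.8 (15.2 to 40.4), 13.5 and 5.92 (2.1002 to 9.74). Xist, transcribed from the inactive X chromosome, had 89.8 (0 to 281) in Gcn2-/- and 33.9 (0 to 125) in Atf4-/-, and the Y-linked Eif2s3y and Ddx3y gave 10.99 and 6.20 in Gcn2-/- and 23.2 and 11.4 in Atf4-/-. None of these 3 was called. The part of the sex of the mice in the differences of sex-biased genes cannot be told apart from the genotype with 1 value per group. Without the sex-biased, Mup and sex chromosome lists 76 genes were called, 40 of them higher in Atf4-/-.

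**Figure D3:**
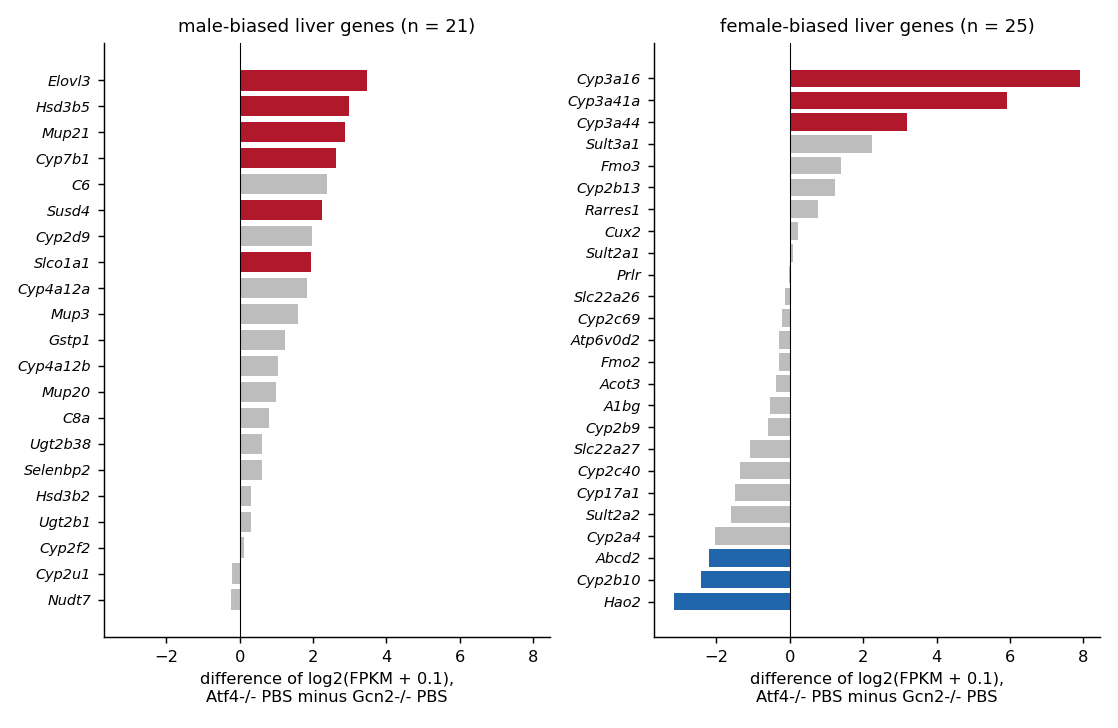
Difference of log2(FPKM + 0.1), Atf4-/- PBS minus Gcn2-/- PBS, of each compared gene in the male-biased (left, 21 genes) and female-biased (right, 25 genes) lists, with called genes in red (higher in Atf4-/-) and blue (lower). The male-biased genes lie almost all above 0, and the female-biased genes lie on both sides.

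Among targets of the integrated stress response Fgf21 was called lower in Atf4-/-. Of 18 targets compared, 12 were lower in Atf4-/-, the median was -0.13, and 1 was called, where 0.976% of all genes were. Fgf21 (chr7:45613907-45615490) had 8.31 FPKM (3.05 to 13.6) in Gcn2-/-, 2.14 (0.434 to 3.85) in WT and 1.17 (0.126 to 2.22) in Atf4-/-, a difference of -2.73. Asns had 4.77 (0.486 to 9.05) in Gcn2-/-, 2.502 (0 to 6.93) in WT and 0.591 (0 to 1.70) in Atf4-/-. Its difference of -2.82 was the largest of the list, but the intervals overlapped. Trib3, a pseudokinase induced by ATF4, gave -1.03, the transcription factor Atf5 gave -0.84, Cth, which makes cysteine from cystathionine, gave -0.67, and Ddit4, an inhibitor of mTORC1, gave 1.14, all with overlapping intervals.

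The amino acid lists held no called gene, where 0.976% of all genes compared were called. At that share lists of 15 to 32 genes would often hold none. All 20 aminoacyl-tRNA synthetases were compared, 17 were lower in Atf4-/- and the median was -0.18. Cars, which charges tRNA with cysteine, had 19.2 FPKM (4.45 to 34.0) in Gcn2-/-, 20.4 in WT and 5.16 (0.669 to 9.66) in Atf4-/-, and Mars, for methionine, had 32.3 (6.398 to 58.1) and 15.7 (3.67 to 27.7). Those intervals overlapped. Of 15 serine and one-carbon enzymes 13 were lower, with a median of -0.31 and a range of -0.57 to 0.20. Of 32 genes of the urea cycle and amino acid breakdown 23 were lower, with a median of -0.19, and the largest differences were those of Gls2, the liver glutaminase, at -1.25 and Agxt, an aminotransferase of glyoxylate, at -1.20. Among 26 genes for chaperones and degradation in the endoplasmic reticulum, 22 were lower, the median was -0.25 and none was called.

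Most lipid genes had lower values in Atf4-/-, and 2 of the 23 genes of fatty acid synthesis, 1 of 30 PPARA targets and 0 of 24 cholesterol genes were called, beside 0.976% of all genes. In fatty acid synthesis 17 of 23 genes were lower, the median was -0.41, Fabp5 was called lower and Elovl3 higher. Fabp5, a fatty acid carrier, had 127 FPKM (66.0 to 188) in Gcn2-/-, 102 in WT and 32.6 (18.2 to 46.9) in Atf4-/-. Scd1, the desaturase that makes oleate, had 2394 (0 to 5696) and 470.3 (99.0 to 842), a difference of -2.35 with overlapping intervals, and the desaturase Fads2 gave -1.50. Of 30 PPARA targets and genes of fatty acid oxidation 29 were lower, the median was -0.37, 7 were lower by more than 1, and Fgf21 was the one called. Cyp4a14, an omega-hydroxylase, gave -1.45 and Ehhadh, a peroxisomal oxidation enzyme, gave -1.39. Cholesterol synthesis had 21 of 24 genes lower, a median of -0.32, a range of -0.78 to 0.14 and no call. After median-ratio scaling 28 of 30 PPARA genes, 17 of 23 fatty acid synthesis genes and 20 of 24 cholesterol genes were below 0.

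Small differences in one direction ran through oxidative phosphorylation and ribosomal protein genes. All 76 subunits of oxidative phosphorylation compared were lower in Atf4-/-, with a median of -0.52 and a range of -0.81 to -0.04, and none was called; after median-ratio scaling 75 of the 76 were below 0. Ndufa6, a complex I subunit, had 405 FPKM (226 to 583) in Gcn2-/- and 230.2 (135 to 325) in Atf4-/-, and Uqcrh, of complex III, had 597 (327 to 867) and 346 (199.8 to 492). Their WT values of 343 and 442 lay between those of the deletion groups. All 81 cytosolic ribosomal protein genes were lower as well, with a median of -0.28, none called, and 81 of 81 below 0 after scaling. Over all genes compared, 5067 (56.2%) had a difference below 0. The intervals of the groups overlapped at each of these genes.

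**Figure D4:**
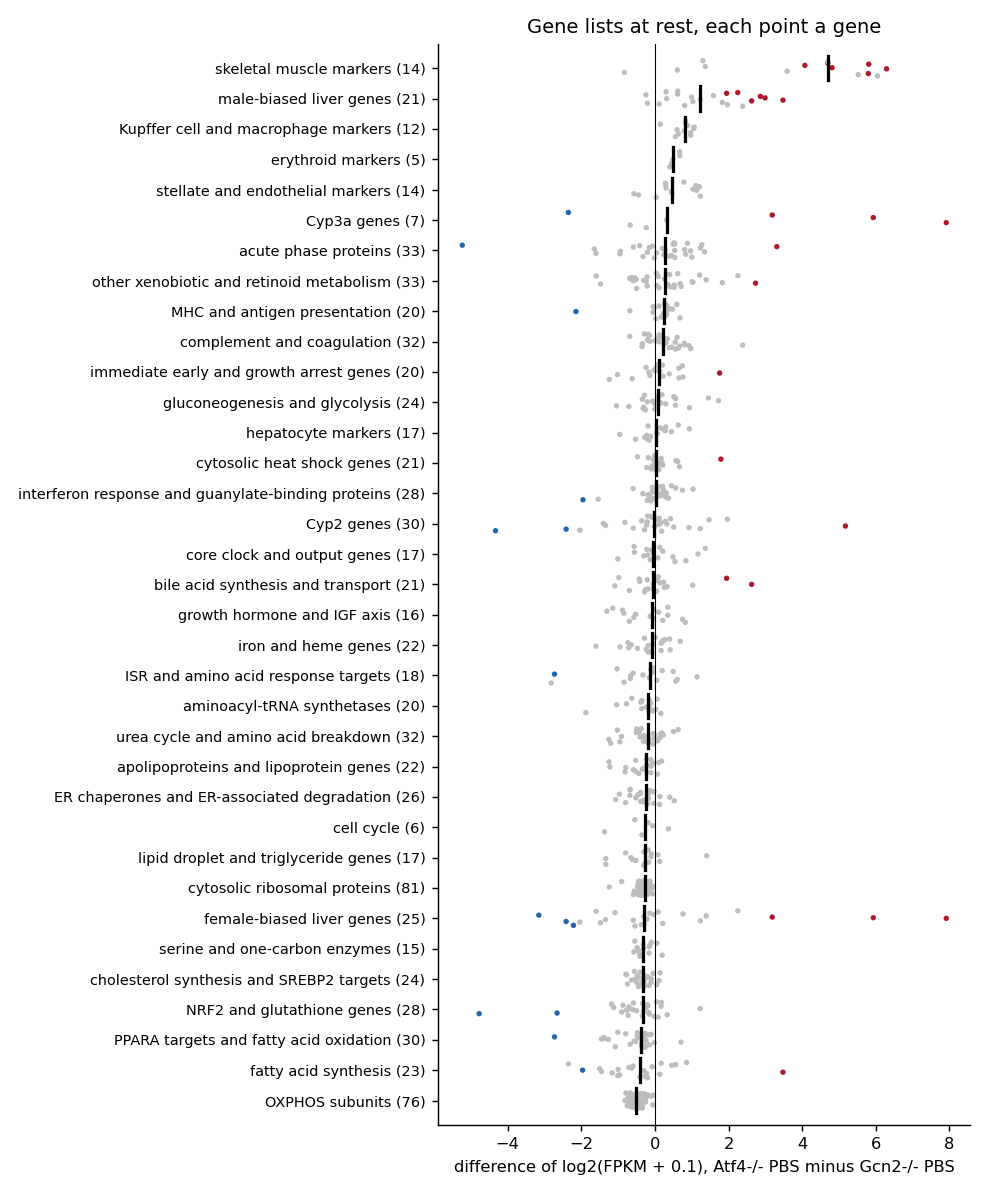
Difference of log2(FPKM + 0.1), Atf4-/- PBS minus Gcn2-/- PBS, of every compared gene in the lists with at least 5 such genes (number in parentheses), with black bars at the list medians and called genes in red (higher in Atf4-/-) or blue (lower). Skeletal muscle and male-biased genes have the highest medians (4.70 and 1.23), and oxidative phosphorylation the lowest (-0.52). The muscle median was smaller at 2.77 with no filter on low values, 2.47 with a pseudocount of 1 and 3.03 over 10 FPKM.

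Acute phase genes differed at single members. Saa3, a serum amyloid A of inflamed tissue, had 876 FPKM (57.6 to 1694) in Gcn2-/-, 17.7 (8.00 to 27.4) in WT and 23.2 (11.6 to 34.9) in Atf4-/-, a difference of -5.23 with a wide Gcn2-/- interval. Orm3, an orosomucoid, was called higher in Atf4-/-, with 10.9 (4.68 to 17.1) against 1.01 (0 to 2.03). Lcn2, an iron-binding lipocalin, had 472 (13.4 to 931) in Gcn2-/-, 151 (48.8 to 253) in Atf4-/- and 10.1 in WT, and its intervals overlapped between the deletions. Of the 33 acute phase genes compared, 21 were higher in Atf4-/- and the median was 0.28. Tff3, a trefoil peptide of mucosal repair, was 13.7-fold higher in Gcn2-/-, at 116 (39.1 to 193) against 8.45 (1.96 to 14.9) in Atf4-/- and 2.38 in WT. Serpina3c, a serine protease inhibitor, had 0.0347 (0 to 0.0956) in Gcn2-/- and 7.32 (2.22 to 12.4) in Atf4-/-.

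Immune genes were called at single members too. Cxcl9, an interferon-induced chemokine, had 8.91 FPKM (4.996 to 12.8) in Gcn2-/-, 8.99 in WT and 2.23 (0.996 to 3.46) in Atf4-/-, the only call among 28 interferon response genes, whose median was 0.03. H2-Q1, a class I antigen gene, had 8.03 (4.34 to 11.7), 8.27 and 1.74 (0.626 to 2.85), the only call among 20 genes of antigen presentation, of which 15 were higher in Atf4-/- with a median of 0.25. The chemokine genes Cxcl13, which attracts B cells, and Ccl6, made by myeloid cells, were called higher in Atf4-/-, with 1.56 and 5.84 FPKM in Gcn2-/- and 5.96 and 18.003 in Atf4-/-. They were on no list and were chosen after their values were seen, and neither was called with a pseudocount of 1 (differences of 1.44 and 1.47). Gadd45g, a growth arrest gene, was called higher in Atf4-/-, at 19.9 (10.8 to 28.9) against 5.802 (2.41 to 9.19), and so was the small heat shock protein gene Hspb1, at 14.6 (7.76 to 21.5) against 4.16 (1.59 to 6.73). Each was the only call in its list, of 20 immediate early and growth arrest genes and of 21 cytosolic heat shock genes. No gene was called in the lists for the growth hormone axis, gluconeogenesis and glycolysis, the clock, complement and coagulation, iron, lipoproteins, lipid droplets and the cell cycle. With 0.976% called over all genes, lists of their sizes would often hold no call. Of all 44 lists, 18 held a called gene and 9 held at least 2. Some lists share members, so that a called gene such as Fgf21, Elovl3, Cyp7b1 or Cyp2b10 counts in more than 1 list. These numbers are therefore not numbers of separate functions.

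Other genes with large differences lay outside the lists of functions. Cib3, a calcium-binding protein, had the largest difference among the genes lower in Atf4-/-: 29.97 FPKM (15.6 to 44.3) in Gcn2-/-, 4.74 (1.53 to 7.94) in WT and 0.639 (0 to 1.31) in Atf4-/-, with no overlap between any of the 3. Spink3, a trypsin inhibitor, had 7.12 (0.992 to 13.3) in Gcn2-/- against 0.278 in WT and 0.212 in Atf4-/-. Krt23, a keratin and the only called gene on the cholangiocyte list, had 4.95 (2.39 to 7.51) and 0.359 (0.00957 to 0.709), Defb1, a defensin, had 8.11 (3.73 to 12.5) and 0.954 (0.00248 to 1.90), and Bik, a BH3-only apoptosis gene, had 7.15 (3.29 to 11.02) and 1.35 (0.276 to 2.42) in Gcn2-/- and Atf4-/-. Gm4794, a predicted gene, had 0.174 (0 to 0.420) in Gcn2-/- and 3.19 (0.838 to 5.54) in Atf4-/-. Hddc3, a phosphohydrolase chosen after its values were seen, had 2.05 (0.492 to 3.61) in Gcn2-/-, 1.92 in WT and 11.8 (5.87 to 17.7) in Atf4-/-.

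Copies of abundant mRNAs gave the largest difference of all. Gm8730, 98.7% identical to the ribosomal protein mRNA Rplp0, had 0.0767 FPKM in Gcn2-/-, 0.108 in WT and 93.8 (52.9 to 135) in Atf4-/-, while Rplp0 had 426 in Gcn2-/- and 181 in Atf4-/-. The sum of the pair was 426 in Gcn2-/- and 274 in Atf4-/-. AL807777.1, 99.4% identical to Rps7, had 0.0925 and 35.6 (19.7 to 51.5), Rpl3-ps1, 99.8% identical to Rpl3, had 0.0413 and 16.6 (9.50 to 23.8), and Gm15387, 99.8% identical to Hmgb1, had 0.185 and 5.52 (2.55 to 8.49). In the other direction Gm9781, 99.4% identical to Eif3j1, had 4.15 (2.18 to 6.12) in Gcn2-/- and 0.0306 in Atf4-/-, with 0.0282 in WT. Reads from such a copy and its parent are uncertain, and whether the copy or the parent was transcribed was not tested. Of the 88 called genes 18 had a copy of at least 95% identity over at least 80% of the transcript, and without them 70 were called, 43 of them higher in Atf4-/-.

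Called genes close to the targeted loci were counted. Of 164 compared genes within 10 Mb of Atf4, 3 were called (1.83%): Mb at 3.2 Mb, Bik at 3.3 Mb and Gm15387 at 6.2 Mb. Of 82 genes within 10 Mb of Eif2ak4, 1 was called (1.22%). That gene was Pla2g4b, a phospholipase A2, 1.6 Mb away, with 0.298 FPKM (0 to 0.777) in Gcn2-/-, 3.26 (1.06 to 5.47) in Atf4-/- and 3.09 (0.997 to 5.18) in WT. The share called over all genes was 0.976%.

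Markers of other tissues differed between groups, and their source was not tested. Of 32 skeletal muscle markers 14 were compared, 13 of them higher in Atf4-/-, and 6 were called: Mb (10.7 FPKM against 0.0375), Tnnc2 (7.26 against 0.0315), Ckm (6.65 against 0.0215), Myl1 (3.92 against 0.0429), Tnni2 (7.58 against 0.196) and Tcap (3.52 against 0.115). The 6 called markers passed the filter of 3 FPKM through Atf4-/- only, so the count by direction was partly set by the filter. Over 1 FPKM there were 6 of the 32 markers in Gcn2-/- and 21 in Atf4-/-. The median difference was 4.70 over the 14 and 2.77 with no filter on low values. The summed level of the 32 markers was 31.8 in Gcn2-/-, 125 in Atf4-/- and 1393 in WT, so the muscle signal was largest in WT. In Gcn2-/- 6 of the 32 were listed at 0, against 0 in Atf4-/-. Without the genes that followed the muscle list across groups 82 genes were called. Lung epithelium markers summed to 2.02 and 2.102 FPKM in Gcn2-/- and Atf4-/- and to 138 in WT, skin, adrenal and kidney markers to 3.24 and 2.87, and pancreatic acinar markers to 10.8 and 16.5, with 15 of 20 acinar markers at 0 in Gcn2-/- and 4 in Atf4-/-. Hepatocyte markers were abundant in both groups, 17 were compared, their median difference was 0.04 and none was called. Alb and Trf had no estimate in either group.

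Lists of markers for nonparenchymal and blood cells differed in direction, with 1 called gene among them, Krt23. Of 12 Kupffer cell and macrophage markers all 12 were higher, with a median of 0.83, and the list summed to 328 FPKM in Gcn2-/-, 564 in Atf4-/- and 503 in WT. Csf1r, the macrophage growth factor receptor, had 9.39 (4.67 to 14.1) in Gcn2-/- and 19.7 (10.4 to 28.9) in Atf4-/-, and Cd5l, a secreted macrophage protein, had 46.6 (27.1 to 66.1) and 91.6 (49.6 to 134). Of 14 stellate and endothelial markers 12 were higher, the median was 0.45 and the sums were 184, 289.5 and 271 in Gcn2-/-, Atf4-/- and WT. All 5 erythroid markers compared and all 3 neutrophil markers were higher too, with medians of 0.49 and 0.59, whereas 2 of 3 cholangiocyte markers were lower, with a median of -0.25. No marker of the Kupffer, stellate and endothelial, erythroid and neutrophil lists was called, and after median-ratio scaling 12 of 12 Kupffer markers and 12 of the 13 stellate and endothelial markers then compared were above 0. In bulk liver fewer cells of a type and less RNA per cell cannot be told apart. Outside the list, Cd163, a scavenger receptor of macrophages, was called, with 1.59 (0.770 to 2.40) in Gcn2-/-, 4.25 (2.41 to 6.09) in WT and 6.89 (4.02 to 9.75) in Atf4-/-, as was Wnt2, a ligand made by liver endothelium, with 0.574 (0.117 to 1.03), 2.74 (1.20 to 4.28) and 3.09 (1.395 to 4.79). These 2 genes were chosen after their values were seen. With a pseudocount of 1 the call of Wnt2 was lost (1.38) and that of Cd163 was not (1.61).

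WT livers given PBS were set beside both deletions at each called gene. The WT interval was apart from Atf4-/- only at 27 of the 88 genes, apart from Gcn2-/- only at 21, apart from both at 12 and overlapped both at 28. For the 65 protein-coding genes these counts were 23, 12, 7 and 23, and the 7 apart from both were the 6 called skeletal muscle markers and Cib3. The group apart in Atf4-/- held Cyp3a16, Cyp3a41a, Cyp3a44, Cyp3a59, Cyp2c39, Cyp2a22, Cyp2b10, Gsta1, Gsta2, Fabp5, Hao2, Cxcl9, H2-Q1 and Orm3. Gcn2-/- alone was apart at Saa3, Tff3, Spink3, Elovl3, Cyp26a1, Cd163, Wnt2 and Pla2g4b. At Hsd3b5, Mup21, Cyp7b1, Slco1a1, Susd4, Fgf21, Abcd2 and Gadd45g the WT interval overlapped both. Among the counted genes WT was listed at exactly 0 at Sult2a6, U6, SNORA48, AC120136.3 and AC159539.1. Such a value was taken as apart here, although it can be a failed estimate. WT lay between the deletion groups at 55 of the 88 genes. The 88 genes were selected because the deletion groups had separate intervals and values far apart. How often WT was apart from a deletion group, or lay between them, was therefore partly set by that selection. No shares over all compared genes are given beside these counts, so they are a description of the called genes only.

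The same deletions were compared in other mice, those given ASNase, which share no library with the PBS groups. There 298 of 9355 genes were called (3.19%), 84 higher in Atf4-/- (0.898%) and 214 lower (2.29%), and 49.7% of all differences were below 0. Of the 88 genes called at rest, 63 could be compared under ASNase and 46 of them (73.0%) had a difference of the same sign, against 4805 of 8599 (55.9%) over all genes compared in both. Calls in both numbered 26, which is 29.5% of the calls at rest and 8.72% of those under ASNase. Of the 26, 20 had the same direction, with 14 higher and 6 lower in Atf4-/-, and 6 had the opposite direction. The rest of the 88 were below the filter under ASNase, were listed at 0 in Gcn2-/- there (Tcap, AC159539.1, SNORA12 and SNORA38, each over 3 FPKM in Atf4-/-), or had intervals or a fold inside the limits.

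The P450 differences at rest were found again in the ASNase mice for some genes and not for others. Cyp3a16 had 0.0606 FPKM in Gcn2-/- and 12.2 in Atf4-/- under ASNase, a difference of 6.26, Cyp3a41a gave 3.78, Cyp3a44 gave 4.33, Cyp2c39 gave 3.48 and Cyp7b1 gave 2.46, all called. Gsta1 was called lower again, at 0.640 against 6.13 (difference -3.07), as were Tff3 (-5.37) and Cxcl9 (-6.24), and Serpina3c (3.15) and Hddc3 (2.75) were called higher again. The copies Gm8730 (9.81), AL807777.1 (9.05), Rpl3-ps1 (7.47), Gm15387 (4.87) and Gm9781 (-5.23) kept their direction too. For Cyp3a59 the difference was -0.01, for Cyp2b10 it was 0.47 and for Cyp2a22 it was 0.60. Male-biased genes had a median of -0.78 under ASNase over 17 genes: Hsd3b5 had 0.180 and 0.167, Slco1a1 had 1.30 and 0.945 and Elovl3 had 0.111 and 0.410 in Gcn2-/- and Atf4-/-. Fgf21 had 0.782 in Gcn2-/- and 3.50 in Atf4-/-, a difference of 2.03 with overlapping intervals, and Asns had 5.94 and 20.1. The sexes of the ASNase groups of each deletion matched those of the PBS groups, so the same imbalance holds in both comparisons.

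**Figure D5:**
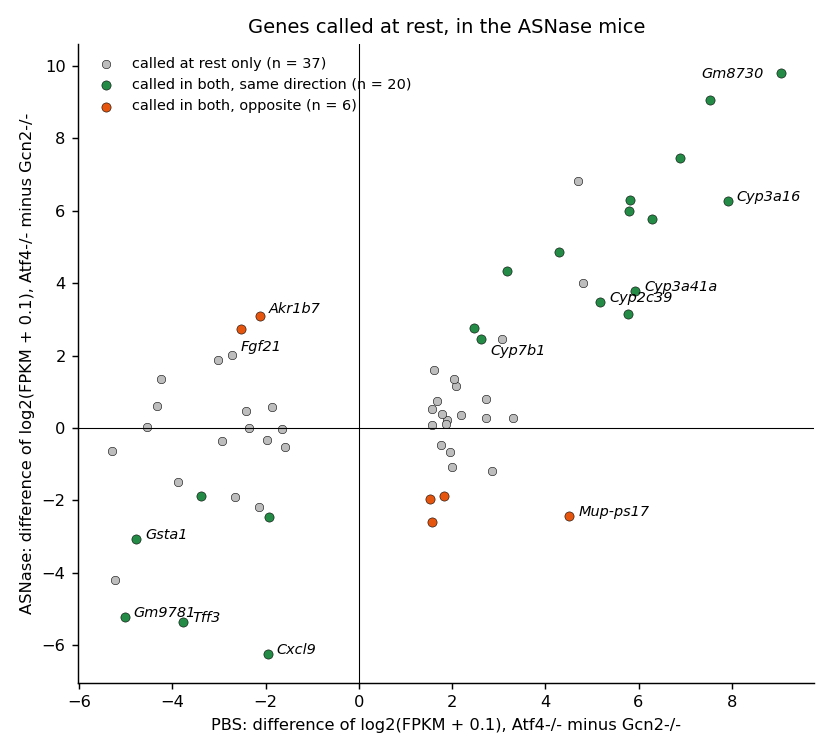
Difference of log2(FPKM + 0.1), Atf4-/- minus Gcn2-/-, in PBS mice (x axis) and in ASNase mice (y axis) for the 63 genes called at rest that could be compared in both, coloured by whether the call was made under ASNase. In the upper right Cyp3a16, Cyp3a41a, Cyp3a44, Cyp2c39 and Gm8730 are higher in Atf4-/- in both, in the lower left Gsta1, Tff3, Cxcl9 and Gm9781 are lower in both, and 6 genes called in both have opposite directions.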

How the data were processed

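RNA-Seq was performed by the authors on liver poly-A RNA of 18 mice, read single-end. By the labels and the study's methods the reads were aligned to mm10 with TopHat, and Cuffdiff estimated expression for each group from its 3 libraries. The deposited table of the authors holds 1 FPKM value for each of 37303 genes and 6 groups, with the bounds of an interval, also in FPKM, and a status. All value columns belonged to a group, and 0 were outside the map. Counts, values of single libraries and the read totals that the study lists were not used here. The depth behind a value is therefore not given, its precision is that of its interval, and the linear models planned for values of single libraries could not be fitted.

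From this table log2(FPKM + 0.1) was compared between Atf4-/- and Gcn2-/- PBS livers (Python 3.11.15, pandas 2.3.3, numpy 2.4.6). Genes needed status OK in both groups, both values above 0 and over 3 FPKM in either. A call needed a difference over 1.5 and intervals that did not overlap, and the FPKM and fold limits follow the study's own. An exact 0 can be a failed estimate and was not called. Biotypes came from GENCODE M21 by gene ID (35446 of 37303 matched, 95.0%), near copies from alignment of transcripts with BLAST+ 2.17.0, and promoters from RefSeq (GRCm38.p6). Locus starts in the table count from 0 and were raised by 1. Genes followed the muscle list when their correlation with its median over the 6 groups was above 0.95.

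Genes were named by a rule: the targeted genes, the 15 called protein-coding genes with the largest difference in each direction, called members of the 44 gene lists, and the members of a described list with the largest difference or level. The members and lists were chosen with earlier results of these data known. The alternatives were other pseudocounts, filters, interval rules, fold limits and scaling, and sets without muscle, sex-biased, noncoding or near-copy genes.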

Additional observations from a re-analysis of the deposited data

Results flagged for a closer look

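Of the genes called both at rest and under ASNase, 6 had opposite directions in the 2 treatments, and the difference between treatments was not tested. Akr1b7, an aldo-keto reductase, was lower in Atf4-/- than in Gcn2-/- at rest (-2.11) and higher under ASNase (3.08), with 3.54 and 0.741 FPKM at rest and 0.388 and 4.03 under ASNase in Gcn2-/- and Atf4-/-. The noncoding 7SK was lower at rest (-2.52) and higher under ASNase (2.72). Rasgef1b, a guanine nucleotide exchange factor, was higher at rest (1.84) and lower under ASNase (-1.87), as were 1810011O10Rik (1.58 and -2.61), the pseudogene Mup-ps17 (4.51 and -2.44) and a U6 snRNA (1.53 and -1.97). Mup-ps17 is 94.95% identical to Mup6, and 7SK and U6 RNA lack a poly-A tail.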

How the results depend on the processing

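The 88 calls changed in number with the filter and with the use of the intervals. Over 10 FPKM 56 genes were called, 29 of them higher in Atf4-/-. With the fold alone 170 were called, 85 higher and 85 lower. Of these 170, 42 were then called in the same direction under ASNase, against 20 of the 88 with intervals. Over all genes compared under ASNase, 6.21% passed the fold alone and 3.19% were called with intervals, so the larger number goes with the looser rule. With genes listed at 0 included there were 182 calls, 90 higher and 92 lower. Among protein-coding genes 24 were lower, and the share of calls that were higher in Atf4-/- was 63.1% there, 55.7% in all genes and 49.5% with genes listed at 0. Protein-coding genes without the muscle and sex lists, a set chosen after seeing the data, gave 47 calls, 26 higher and 21 lower; the set without near copies and the protein-coding set under ASNase were also chosen after seeing the data. Under pseudocounts of 1 and 0.01, no filter, the root rule, a limit of 1 and median-ratio scaling the count lay between 77 and 109. Pseudocounts, filters, interval rules and fold limits cannot change the direction of a difference, and scaling moved the differences by far less than the fold limit. That no called gene changed direction was therefore set in advance. Of the 88 genes, 32 were no longer called over 10 FPKM, 11 with a pseudocount of 1 and 2 after scaling. The 32 included Fgf21, Cyp26a1, Cxcl9, H2-Q1 and Krt23, each the only call of a list and under 10 FPKM in both groups. Cxcl13, Ccl6, Wnt2, Akr1b7 and 1810011O10Rik were among the 11. The number of lists of functions with a called gene was 16 and lay between 11 and 20. Lists of functions here took in the sex-biased and Mup lists but not the lists of cell type and tissue markers, and some of them share members. List medians were about the same for 37 of 42 lists over 10 FPKM and for 37 with no filter. Over 10 FPKM the male-biased median was 1.59, the neutrophil median 2.53 and the stellate and endothelial median 0.79. The neutrophil value was the largest difference among the 3 neutrophil genes compared in the main setting, and so that of its most different gene alone. With no filter the muscle median was 2.77 and the cholangiocyte median -0.07. With a pseudocount of 1 only the muscle median moved, to 2.47. Intervals of about 52.3% of the value to either side hide differences smaller than the fold limit in most genes. They also hide some larger ones, since only 88 of the 170 genes past the fold had separate intervals.

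No paired analysis was possible because the table holds 1 value per group, and leaving out each replicate in turn could not be run for the same reason.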
